A study of Mus musculus with 13 samples.

Results

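Immediate early response genes are switched on by growth factors, cytokines and stress without the need for newly made protein. Their promoters are read by factors that are already in the nucleus: serum response factor with its partners at CArG boxes, and CREB at cAMP response elements, both downstream of mitogen-activated protein (MAP) kinases. Many of the products are transcription factors of the AP-1 and EGR families, while others, such as the dual-specificity phosphatases and the RNA-decay factor ZFP36, switch the response off again. In the liver the set is known for its fast induction after partial removal of the organ, when FOS, JUN and MYC rise ahead of cell division.

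The set described here has 38 named genes, and all 38 of 38 were measured among 18193 genes in tumours of mir-122 knockout mice and in livers of wild-type mice. The genes were named as a set with earlier results of these data in view, and the sets of controls were chosen by the measured Fos level. Each gene was read from its probe set with the highest mean over all 13 arrays. All animals were of the B6/129 background, and each array measured total RNA. The tumours came from knockout mice of 11 months (3 arrays) and of 14 months (5 arrays), and the controls were livers of wild-type mice of 11 months (2 arrays) and of 14 months (3 arrays). miR-122 is the most abundant microRNA of hepatocytes, and the knockout was present in every tumour and in no control. Liver tissue of knockout mice outside a tumour was not analysed here, so knockout and tumour cannot be told apart. The labels do not say that the 8 tumours came from 8 mice, so p-values measure the spread between these samples. All levels are log2 values made by robust multi-array analysis, so that a difference of 1 is a 2-fold difference, and all differences are log2 differences.

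The arrays were read for the identity and the quality of the tissue before the genes were compared. Array medians lay between 5.13 and 5.22, and a level under the median of all probe sets, 5.17, was not shown to be above background. The mean level of 7 hepatocyte markers was 13.54 to 13.95 in tumours and 13.84 to 13.94 in controls, and 0 of the 7 passed the test between tumours and controls. These levels lie near the top of the scale. A pair of controls stood apart: 11-month control 1 and 14-month control 3 correlated at 0.9948, and 63 probe sets differed by over 2-fold between them, although the labels give them different ages. The other pairs of controls correlated at 0.9905 at most and had 485 to 1315 such probe sets. The labels do not say that each control came from a mouse of its own. The near-identical arrays are counted as 2 controls throughout, although they may not be independent. They were left out in an alternative fit but were not averaged. Numbers of samples follow their order and only name them.

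Sequences upstream of the members were taken from RefSeq (build GRCm38.p6) for 32 of the 38 genes, as the 250 bases before the annotated start. A CArG box was found in 3 of the 32 members (Egr2, Dusp5 and Zfp36), against 1.62% of 27025 genes. The cAMP response element (CRE) TGACGTCA was found in 3 (Maff, Dusp1 and Btg2), against 1.77%, its half-site TGACG in 17, against 19.8%, and the AP-1 motif TGANTCA in 1 (Csrnp1), against 7.82%. Both strands were searched, each CRE also holds the half-site on both strands, and a gene with several starts counted once. A match is a description of letters, and a gene without one is only without these letters in this window. Below, the window of Fos is shown because Fos set the split of the controls. Those of Btg2, Zfp36, Dusp1 and Dusp5 are shown as examples that hold a CArG box or a CRE. Maff, which also holds a CRE, is not shown. Egr2, which differed most between the controls, is shown by the 30 bases around each of its CArG boxes. Capitals mark CArG boxes, CREs and half-sites, sequences run 5′ to 3′ on the strand of the gene, and the last capitals of the second Egr2 stretch are the start of a half-site that runs on past it.
Fos, chr12:85473640-85473889, plus strand: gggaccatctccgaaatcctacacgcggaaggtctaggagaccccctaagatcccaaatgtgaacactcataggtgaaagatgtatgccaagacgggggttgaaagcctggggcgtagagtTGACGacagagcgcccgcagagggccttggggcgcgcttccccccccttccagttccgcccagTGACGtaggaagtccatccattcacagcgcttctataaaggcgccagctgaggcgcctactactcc
Btg2, chr1:134079156-134079405, minus strand: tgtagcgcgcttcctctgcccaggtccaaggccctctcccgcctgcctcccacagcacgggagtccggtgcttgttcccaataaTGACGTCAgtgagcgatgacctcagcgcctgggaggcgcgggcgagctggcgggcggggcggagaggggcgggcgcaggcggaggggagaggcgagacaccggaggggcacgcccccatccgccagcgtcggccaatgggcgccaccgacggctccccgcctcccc
Zfp36, chr7:28379229-28379478, minus strand: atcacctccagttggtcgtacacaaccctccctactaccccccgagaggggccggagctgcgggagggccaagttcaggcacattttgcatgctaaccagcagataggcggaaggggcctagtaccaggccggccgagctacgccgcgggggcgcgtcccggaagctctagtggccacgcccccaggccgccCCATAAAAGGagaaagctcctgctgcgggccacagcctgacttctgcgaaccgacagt
Dusp1, chr17:26508473-26508722, minus strand: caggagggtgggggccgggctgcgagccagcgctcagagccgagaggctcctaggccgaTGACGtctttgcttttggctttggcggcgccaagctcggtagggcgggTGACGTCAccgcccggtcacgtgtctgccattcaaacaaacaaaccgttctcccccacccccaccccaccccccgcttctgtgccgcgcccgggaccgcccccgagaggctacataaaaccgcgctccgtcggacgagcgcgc
Dusp5, chr19:53528895-53529144, plus strand: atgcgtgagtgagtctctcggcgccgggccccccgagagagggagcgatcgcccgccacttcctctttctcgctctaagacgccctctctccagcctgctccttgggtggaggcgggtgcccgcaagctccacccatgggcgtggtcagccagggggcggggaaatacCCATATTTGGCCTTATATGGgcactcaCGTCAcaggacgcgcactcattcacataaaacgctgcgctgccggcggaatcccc
Egr2, chr10:67537484-67537513, plus strand: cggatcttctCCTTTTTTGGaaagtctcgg
Egr2, chr10:67537787-67537816, plus strand: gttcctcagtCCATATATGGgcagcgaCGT
The CArG box of Zfp36 lies 58 to 49 bases before the start, and those of Dusp5 adjoin each other at 82 to 73 and 72 to 63 bases. The CRE of Btg2 lies 166 to 159 bases and that of Dusp1 143 to 136 bases before the start. In Fos the half-sites lie at 129 to 125 and 66 to 62 bases.

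Fos, which encodes the FOS subunit of AP-1, had 6.36 as the lowest, 8.39 as the median and 9.15 as the highest level in tumours. In controls it had 12.68 and 12.73 in the near-identical pair, and 6.91, 6.34 and 5.86 in the other 3. A level of 10 was the limit that separates these sets, and the levels nearest to it were 12.68 above and 6.91 below. The pair is called the Fos-high controls and the other 3 the Fos-low controls. No tumour reached the Fos-high controls, and all but 2 of the tumours were above every Fos-low control. The exceptions were 11-month tumour 1 and 14-month tumour 4, with 6.36 and 6.65.

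The 2 sets of controls differed across most of the members. In 23 of 38 members the Fos-high controls were higher by over 1 without overlap with the Fos-low controls, against 1.38% of all genes, and no member was lower by as much. In 18 members the difference was over 2 without overlap, against 0.302% of all genes, and in 13 the Fos-high controls were the 2 highest of all 13 arrays, against 4.35% of all genes. The median difference over the members was 1.67, against 0.015 over all genes, while the median gap between the near-identical controls themselves was 0.16 over members and 0.13 over all genes. The limit on Fos chose these sets and the list was made with the sets known, so that the direction of these differences supports nothing and no test was made. In these bulk samples, fewer cells of a type and less RNA per cell cannot be told apart.

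**Figure D1:**
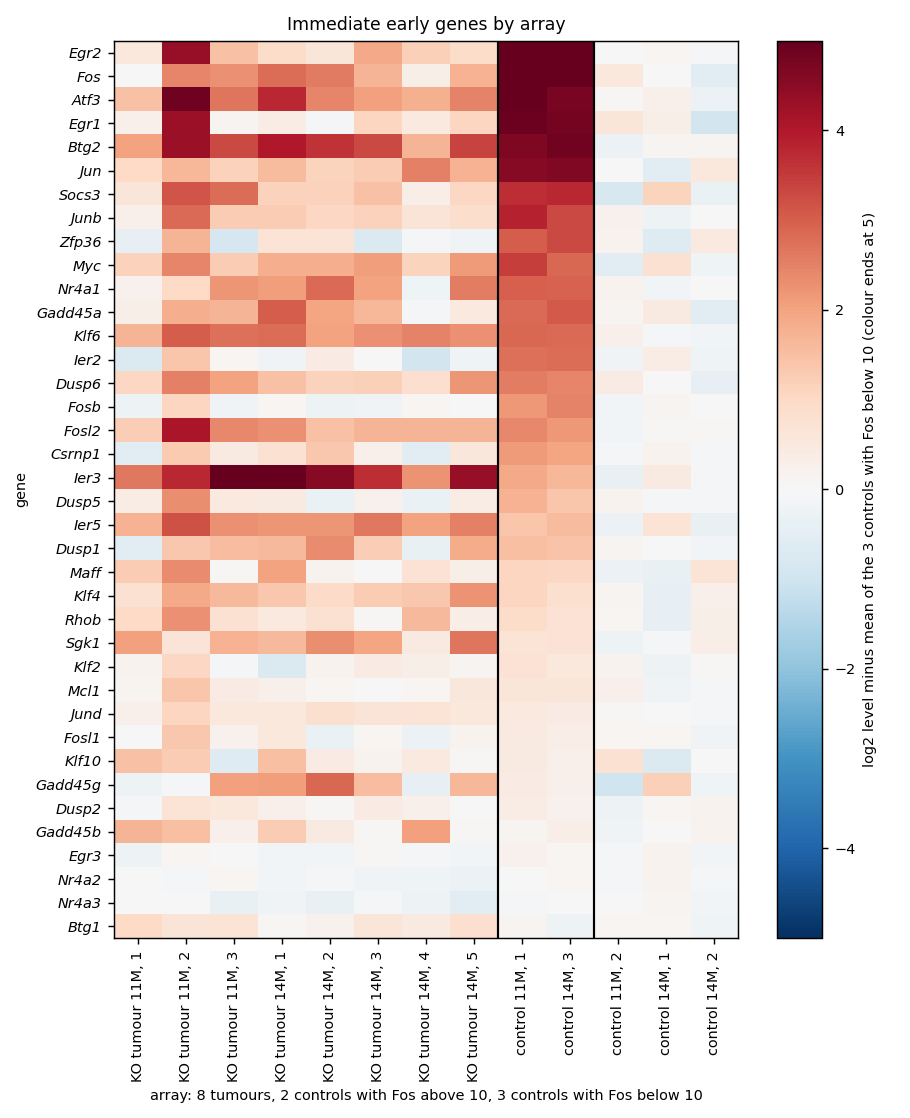
Level of each of the 38 members (rows) in each of 13 arrays (columns), as log2 difference from the mean of the 3 controls with Fos below 10. Tumours stand left of the controls; colour runs from blue (lower) to red (higher), with white at 0. The 2 controls with Fos above 10 are red for most members, and among the tumours 11-month tumour 2 is the reddest, with 30 members over 1 above the Fos-low controls.

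By the median over the members, tumours lay between the 2 sets of controls, but not in every member. In 20 members the tumour mean lay between control means over 1 apart, against 0.671% of all genes. In others, such as Ier3, Ier5, Sgk1 and Btg1, it was above both control means. By the probe sets that the rule takes, the tumour mean was below both in Nr4a2, Nr4a3, Egr3 and Ier2. For Ier2 it was within 0.01 of the Fos-low mean. The median difference of the tumours over the members was 1.04 from the Fos-low controls, against -0.04 over all genes. From the Fos-high controls it was -0.39, against -0.06 over all genes. In 14 members every tumour was above every Fos-low control (8.74% of all genes), and in 14 every tumour was below both Fos-high controls (13.5% of all genes). Egr2, Btg2, Jun, Junb and Myc met both conditions, so that all 8 tumours lay between the sets. For Egr2 the Fos-low controls and most tumours, with a tumour median of 4.62, were under the background level of 5.17, so their order is not settled. Only 6 genes of the whole table (0.033%) met both conditions, and the one besides these 5 members is Sertad2, which encodes a transcriptional cofactor. Both differences use the same 8 tumours, and the choice of the control sets fixes part of the pattern, so it stands as a description.

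**Figure D2:**
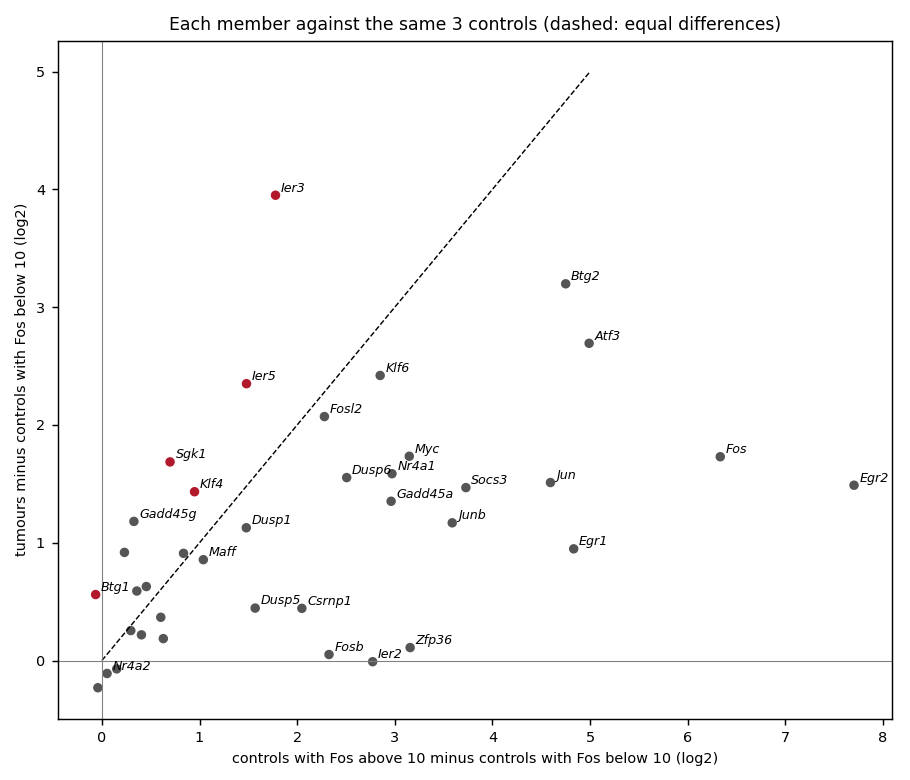
Difference of the tumour mean from the mean of the Fos-low controls (vertical axis, log2) against the difference of the Fos-high controls from the same Fos-low controls (horizontal axis, log2), 1 point for each of 38 members. Both axes share the Fos-low controls, so the slope is no finding; the points for Ier3 and Ier5 lie above the line of equality, and those for Egr2, Fos and Egr1 lie far below it.

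Among the AP-1 subunits, Jun and Junb lay between the sets of controls in every tumour, and Atf3 in all but 1. Jun, the main partner of FOS, had 8.75, 9.21 and 10.29 as lowest, median and highest level in tumours, against 12.34 and 12.39 in Fos-high controls and 7.80, 7.20 and 8.32 in Fos-low controls. Junb had 7.02, 7.85 and 9.59 in tumours, against 10.60 and 10.07 in Fos-high controls and 6.97, 6.50 and 6.78 in Fos-low controls. The tumours of both genes overlapped with neither set. Atf3, a stress-induced repressor that pairs with JUN proteins, had 7.29, 8.29 and 10.70 in tumours, against 11.06 and 10.56 in Fos-high controls and 5.89, 6.07 and 5.52 in Fos-low controls. The highest Atf3 of the tumours, in 11-month tumour 2, reached the range of the Fos-high controls. The differences between the tumour mean and the mean of the Fos-low controls were 1.51 for Jun, 1.17 for Junb and 2.69 for Atf3.

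The other AP-1 members were varied. Fosb, a second FOS protein, was 3.59 to 4.94 in tumours, 6.04 and 6.32 in Fos-high controls and 3.71 to 3.98 in Fos-low controls. Tumours and Fos-low controls thus overlapped, and both were under the background level of 5.17. Fosl2, a later-acting FOS protein, was 7.52 to 10.35 in tumours, 8.43 and 8.66 in Fos-high controls and 6.15 to 6.34 in Fos-low controls, and no tumour overlapped with the Fos-low set. Its other probe set had a difference of 0.08 between the sets of controls, against 2.28 for this one. Jund, the JUN protein found in resting cells, was 9.20 to 10.04 in tumours, 9.37 and 9.47 in Fos-high controls and 8.90 to 9.04 in Fos-low controls. The small Maf protein Maff was 6.38 to 8.78 in tumours and overlapped with both sets, and Fosl1 was 4.34 to 6.00 in tumours and 4.49 to 5.12 in controls. Neither gene separated tumours from controls.

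EGR proteins are zinc finger factors and classic targets of serum response factor, and they showed the widest gap between the controls. Egr2 had 4.06, 4.62 and 7.92 in tumours, against 11.17 and 11.33 in Fos-high controls and 3.53, 3.65 and 3.46 in Fos-low controls. The difference of 7.70 between the controls was the largest of the 38 members, and the Fos-low levels were under background. Egr1 had 8.23, 8.76 and 12.62 in tumours, against 13.23 and 13.11 in Fos-high controls and 8.95, 8.64 and 7.42 in Fos-low controls. Apart from 11-month tumour 2, with 12.62, the tumours lay at 8.23 to 9.43, in or just above the range of the Fos-low controls. Egr3 was flat by the probe set that the rule takes, with 5.87 to 6.19 in tumours and 5.96 to 6.33 in controls. By its other probe set it had 2.96 to 3.82 in 7 tumours and 5.98 in 11-month tumour 2, against 7.34 and 7.28 in Fos-high controls and 2.98, 2.91 and 3.14 in Fos-low controls. That probe set, looked at after seeing the data, thus showed the step of Egr1 and Egr2, with a difference of 4.30 between the sets of controls.

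Krüppel-like factors, also zinc finger proteins, differed less between the controls. Klf6, which the knockout literature names in connection with miR-122, was 7.72 to 9.08 in tumours, 8.88 and 8.89 in Fos-high controls and 5.89 to 6.29 in Fos-low controls. All tumours were above the Fos-low controls, by 2.42 in the mean, and they overlapped with the Fos-high controls. Klf2 was 6.19 to 7.93 in tumours and 6.66 to 7.63 in controls, and Klf10 6.59 to 8.76 in tumours and 6.52 to 7.98 in controls. Neither separated tumours from controls.

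Of the orphan nuclear receptors, Nr4a1 was 7.15 to 10.19 in tumours, 10.32 and 10.36 in Fos-high controls and 7.21 to 7.53 in Fos-low controls. All tumours were below the Fos-high controls, and the lowest was at the level of the Fos-low ones. Nr4a3 was 6.06 to 6.58 in tumours and 6.46 to 6.73 in controls, while another of its probe sets read 4.26 to 6.27 in tumours, 6.30 and 5.81 in Fos-high controls and 4.15 to 4.74 in Fos-low controls. Nr4a2 was flat by the probe set that the rule takes, at 5.60 to 6.01 in tumours and 5.80 to 6.08 in controls. Its other probe sets gave another picture. Another probe set read 3.01, 4.17 and 9.06 in the 11-month tumours 1 to 3 and 6.29, 7.46, 7.72, 3.60 and 8.79 in the 14-month tumours 1 to 5, against 3.74 and 3.90 in the 2 near-identical controls and 3.16, 3.03 and 2.94 in the others. In 5 tumours it was thus far above every control, and in the other 3 near them. Its log2 fold change was 2.72 ± 1.05 (SE) with an adjusted p of 0.1 in a limma fit over 45037 probe sets, and 2 more of the 5 other probe sets gave 1.85 (adjusted p = 0.155) and 1.65 (adjusted p = 0.0993). This look at single probe sets was chosen after seeing the data.

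MYC is a growth factor-induced transcription factor, and IER2, IER5 and CSRNP1 are nuclear early response proteins. Myc had 7.89, 8.59 and 9.21 in tumours, against 10.22 and 9.62 in Fos-high controls and 6.22, 7.51 and 6.57 in Fos-low controls. All tumours lay between the sets. Ier2 was 7.29 to 9.59 in tumours, 10.96 and 10.97 in Fos-high controls and 7.99 to 8.56 in Fos-low controls, and the mean of the tumours was within 0.01 of that of the Fos-low controls. Csrnp1 was 6.29 to 8.20 in tumours, 8.82 and 8.97 in Fos-high controls and 6.75 to 7.01 in Fos-low controls. Ier5 was higher in every tumour than in every control.

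The phosphatases that switch off MAP kinases were higher in the Fos-high than in the Fos-low controls for 4 of 4 members, and by over 1 for 3 of them. Dusp6, specific for ERK, was 9.89 to 11.54 in tumours, 11.48 and 11.61 in Fos-high controls and 8.64 to 9.44 in Fos-low controls. Dusp1, which acts on several MAP kinases, was 8.91 to 11.80 in tumours, 10.89 and 10.97 in Fos-high controls and 9.30 to 9.57 in Fos-low controls. Dusp5 was 5.25 to 7.90 in tumours, 6.96 and 7.34 in Fos-high controls and 5.49 to 5.76 in Fos-low controls. All Dusp6 levels of tumours were above the Fos-low controls, whereas those of Dusp1 and Dusp5 spanned both sets. Dusp2 was 5.47 to 6.22 in tumours, 5.78 and 5.92 in Fos-high controls and 5.30 to 5.72 in Fos-low controls.

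The genes of growth arrest and RNA decay differed among themselves. Btg2, an antiproliferative gene whose product promotes mRNA deadenylation, had 8.82, 10.46 and 11.42 in tumours, against 11.78 and 11.96 in Fos-high controls and 6.83, 7.27 and 7.25 in Fos-low controls. All tumours lay between the sets, 3.20 above the Fos-low mean. Zfp36, which marks AU-rich mRNAs for decay, had 8.35, 9.06 and 10.88 in tumours, against 12.20 and 12.48 in Fos-high controls and 9.35, 8.52 and 9.68 in Fos-low controls. Its tumour mean was 0.11 above that of the Fos-low controls, and the ranges overlapped. Gadd45a, a stress-response gene, was 6.00 to 9.09 in tumours, 8.93 and 9.15 in Fos-high controls and 5.52 to 6.52 in Fos-low controls. Gadd45b was 6.51 to 8.51 in tumours and 6.28 to 6.79 in controls, and Gadd45g 7.69 to 10.98 in tumours and 7.11 to 9.31 in controls, without a step between the sets of controls.

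Of the signalling and survival genes, Socs3, a feedback inhibitor of cytokine receptors, had 6.94, 7.74 and 9.75 in tumours, against 10.29 and 10.35 in Fos-high controls and 5.80, 7.70 and 6.27 in Fos-low controls. All tumours were below the Fos-high controls, and 11-month tumours 2 and 3, with 9.75 and 9.39, came nearest to them. The small GTPase Rhob was 9.23 to 11.43 in tumours and 8.76 to 10.09 in controls, and the anti-apoptotic Mcl1 10.02 to 11.45 in tumours and 9.88 to 10.66 in controls. For both genes the tumours overlapped with both sets of controls, and the sets did not overlap with each other.

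**Figure D3:**
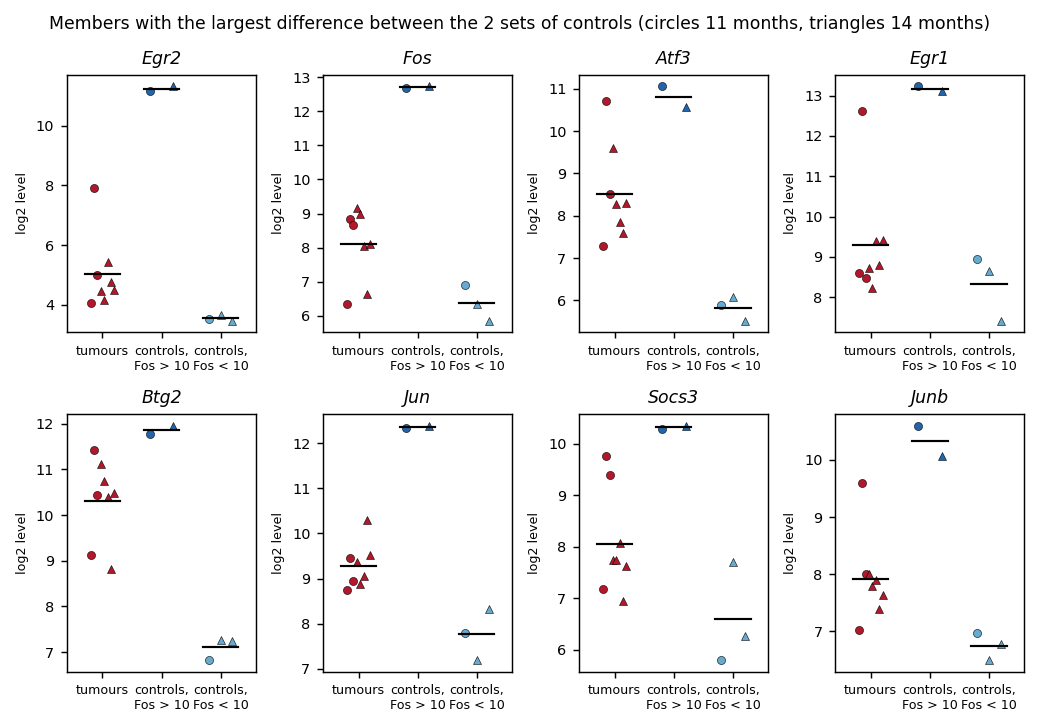
Log2 level in each array of the 8 members with the largest difference between the control sets (circles 11 months, triangles 14 months, bars the mean of a group; vertical axes do not start at 0). Tumours are red, Fos-high controls dark blue and Fos-low controls light blue; in Jun, Junb, Btg2 and Egr2 the 8 tumours overlap with neither set of controls.

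Tumours were then tested against all 5 controls, with a mean for each group and age, across all 18193 genes with limma and Benjamini-Hochberg adjustment at 0.05. With the ages weighted equally, Ier3, Ier5, Sgk1, Klf4 and Btg1 rose in tumours and no member fell. These 5 of 38 compare with 20.1% of all genes past the threshold, 10.3% higher and 9.81% lower. The share of members was thus below that of all genes, a difference that was not tested. At an unadjusted p of 0.05, 7 members passed, against 36.4% of all genes. The median fold change over the members was 0.205, against -0.05 over all genes.

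Ier3, a stress-inducible gene of cell survival, had 6.96, 8.79 and 10.08 as lowest, median and highest level in tumours, against 6.61 and 6.38 in Fos-high controls and 4.36, 5.17 and 4.62 in Fos-low controls. Every tumour was above every control, as was true of Ier5 and of 6.22% of all genes. Ier3 averaged 8.67 ± 1.09 in tumours (SD, n = 8) and 5.43 ± 1.02 in controls (SD, n = 5), and the log2 fold change from limma was 3.20 ± 0.61 (SE, adjusted p = 0.00517). Ier5 had 7.63, 8.16 and 9.11 in tumours, against 7.29 and 7.49 in Fos-high controls and 5.60, 6.58 and 5.55 in Fos-low controls. Its log2 fold change was 1.78 ± 0.38 (SE, limma adjusted p = 0.0088), and the tumours again did not overlap with any control. Without 11-month control 2 the adjusted p of Ier5 was 0.0541. Its 2 other probe sets gave 1.09 (adjusted p = 0.00549) and 0.67 (adjusted p = 0.0517).

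Sgk1, a kinase induced by serum and glucocorticoids, had 9.37, 10.79 and 11.60 in tumours, against 9.60 and 9.66 in Fos-high controls and 8.68, 8.86 and 9.25 in Fos-low controls. The limma fit gave a log2 fold change of 1.38 ± 0.38 (SE, adjusted p = 0.0279). All tumours were above the Fos-low controls, and 11-month tumour 2 and 14-month tumour 4 were below the Fos-high ones. The call of Sgk1 was lost in 5 of the 13 fits that left out 1 array, with adjusted p of 0.123 without 11-month control 2, 0.0662 and 0.0564 without 14-month controls 1 and 2, and 0.0531 and 0.0592 without 11-month tumours 1 and 3.

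Klf4, a Krüppel-like factor of differentiation, had 5.23, 5.80 and 6.71 in tumours, against 5.54 and 5.25 in Fos-high controls and 4.59, 4.05 and 4.71 in Fos-low controls. Its log2 fold change was 1.01 ± 0.30 (SE, limma adjusted p = 0.0339), with all tumours above the Fos-low controls and the Fos-high ones within the range of the tumours. The levels lie around background, and another probe set gave 0.42 (adjusted p = 0.122). The call of Klf4 was also lost in 5 of 13 fits that left out 1 array, with adjusted p of 0.155 without 11-month control 2, 0.0781 and 0.0635 without 14-month controls 1 and 2, and 0.0624 and 0.0697 without 11-month tumours 2 and 3.

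Btg1, a relative of Btg2 with the same antiproliferative role, had 10.59, 11.13 and 11.51 in tumours, against 10.64 and 10.26 in Fos-high controls and 10.60, 10.63 and 10.32 in Fos-low controls. Its difference between the sets of controls was -0.06 (Fos-high minus Fos-low). Its log2 fold change was 0.61 ± 0.14 (SE, limma adjusted p = 0.0117), and 1 tumour was within the range of the controls. Without 11-month control 2 its adjusted p was 0.0516. Its other probe sets gave 0.59 (adjusted p = 0.00869) and 0.33 (adjusted p = 0.172).

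**Figure D4:**
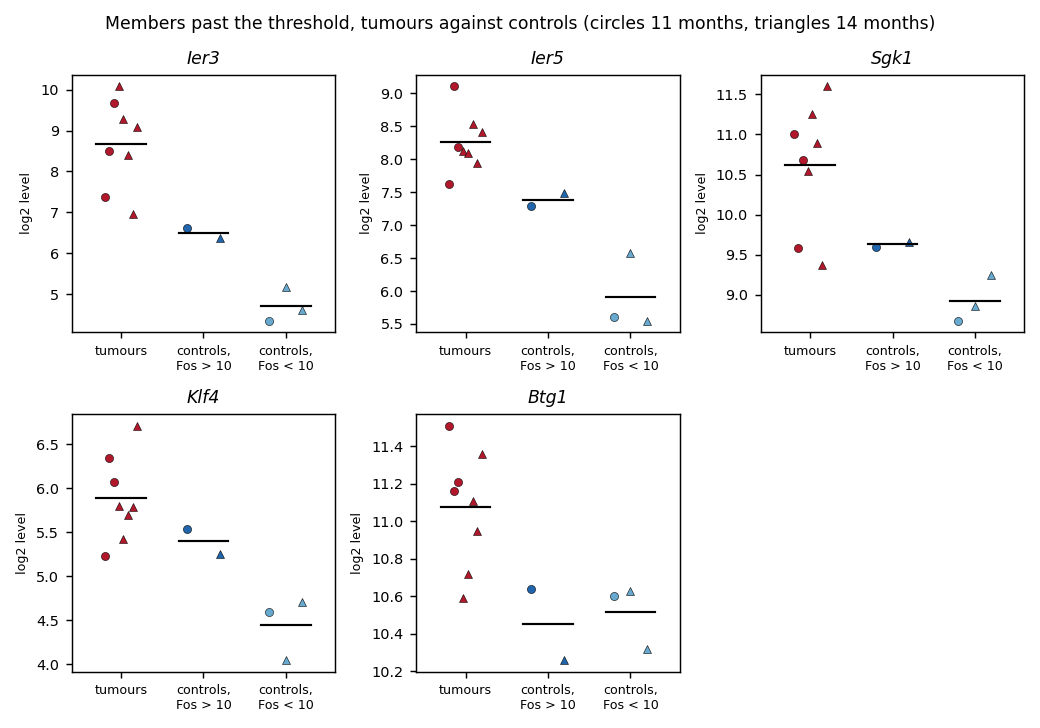
Log2 level in each array of the 5 members past the threshold between tumours and controls (circles 11 months, triangles 14 months, bars the mean of a group; vertical axes do not start at 0). Tumours are red, Fos-high controls dark blue and Fos-low controls light blue; for Ier3 and Ier5 no control reaches the lowest tumour.

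The other 33 members did not pass. Among the genes of the AP-1 and EGR families, the log2 fold change was -0.98 ± 1.28 for Fos (SE, limma adjusted p = 0.601), -0.45 ± 0.90 for Jun (adjusted p = 0.743), -1.0 ± 1.09 for Egr1 (adjusted p = 0.529) and -1.59 ± 1.54 for Egr2 (adjusted p = 0.477). The levels of these genes had SDs of 0.50 to 1.41 in tumours, against 2.55 to 4.22 in controls. Fosl2 had 1.22 ± 0.57 (adjusted p = 0.143), Klf6 1.23 ± 0.57 (adjusted p = 0.144) and Jund 0.43 ± 0.15 (adjusted p = 0.0654). Zfp36 had -1.20 ± 0.73 (adjusted p = 0.254) and Ier2 -1.10 ± 0.62 (adjusted p = 0.22).

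At 11 months alone 0 members passed with limma, against 1.92% of all genes, and 3 had an unadjusted p under 0.05, against 16.5% of all genes. At 14 months Ier3 (3.37, adjusted p = 0.0166), Ier5 (1.69, adjusted p = 0.0371) and Klf4 (1.21, adjusted p = 0.0478) rose, against 15.3% of all genes. The 14-month count was 0 without 14-month control 1 or 14-month control 2, 1 without 14-month tumour 2, 3 or 5, and 5 without 11-month tumour 2. In the test of the difference between the ages, limma called 0 members and 0% of all genes, and 0 members had an unadjusted p under 0.05, against 2.99% of all genes.

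The same fit was made without the near-identical controls, which are the 2 Fos-high arrays. That left 1 control of 11 months, which carries the whole control side of that age, so fold changes are given here without p-values. The log2 fold changes were 4.01 for Ier3, 3.27 for Btg2, 2.74 for Atf3, 2.37 for Klf6 and 1.46 for Jun. Sgk1 had 1.71 and Btg1 0.58, whereas Nr4a3 had -0.21, Nr4a2 -0.06 and Egr3 -0.06. In 11 members, Fos, Fosb, Jun, Junb, Egr1, Egr2, Klf2, Ier2, Csrnp1, Dusp5 and Zfp36, the sign of the fold change turned from negative to positive. Fos had 1.57. Since the arrays left out are those with the highest Fos, these rises are partly fixed by the choice and support nothing by themselves.

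**Figure D5:**
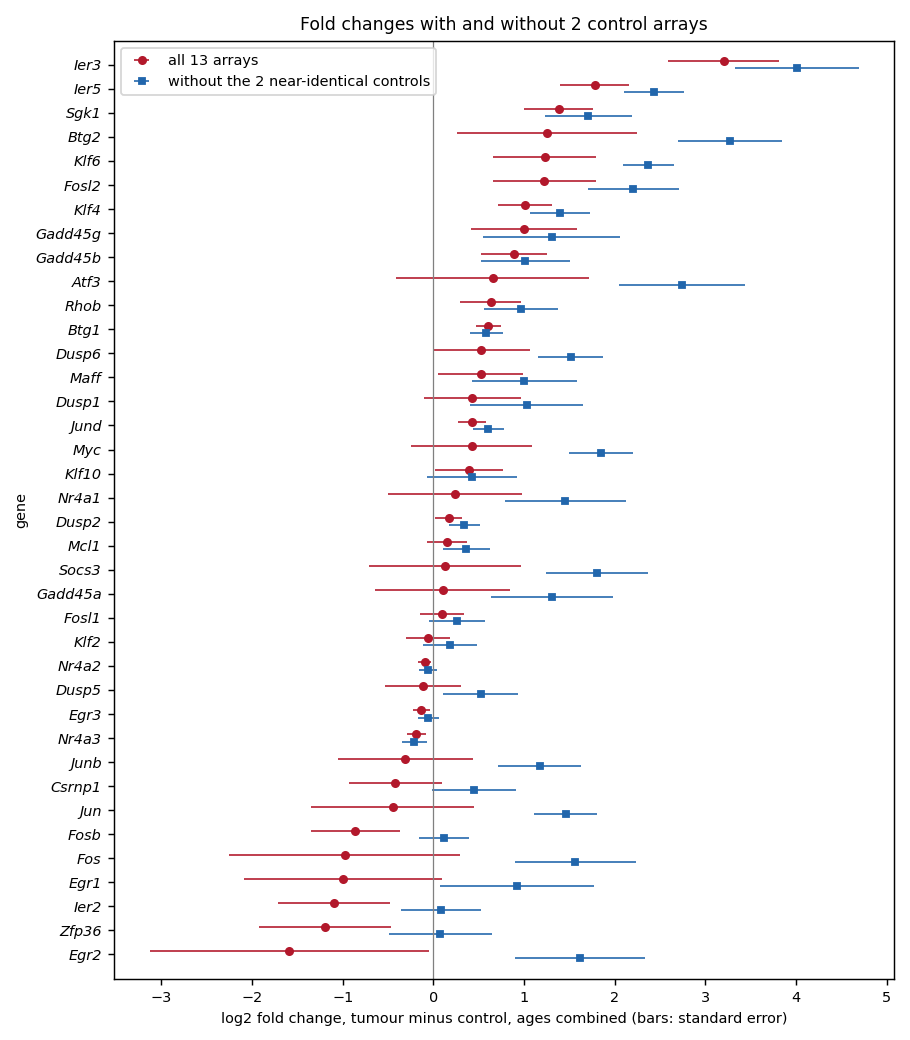
Log2 fold change between tumours and controls (mean of the ages) for each of 38 members, with all 13 arrays (red circles) and without the 2 near-identical controls (blue squares); bars are standard errors from limma. Egr2, Fos and Jun change sign between the fits, while Ier3, Ier5 and Sgk1 are positive in both.

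The members varied between tumours. 11-month tumour 2 had the highest level of the 8 tumours in 23 members and of all 13 arrays in 11. In this tumour 30 members were over 1 above the mean of the Fos-low controls, against 6.1% of all genes. 11-month tumour 1 and 14-month tumour 4 were the lowest tumour in 14 and 12 members, and each had 12 members over 1 above the Fos-low controls, against 6.0% and 7.0% of all genes. The other 5 tumours had 17 to 21 such members, against 8.3% to 10.1%, and the Fos-high controls 24 and 23, against 1.5% each. No array had a member over 1 below the Fos-low mean. 11-month tumour 2 was also the highest array for the mean of 7 macrophage markers (9.19, against 6.62 to 8.75 in the other tumours and 7.88 to 8.37 in controls), and of 4 B cell markers (7.17, against 5.08 to 6.57 and 5.39 to 6.29). The same held for the means of cholangiocyte (5.75), endothelial (7.76) and hepatocyte markers (13.95). The next highest arrays for these had 5.34, 7.67 and 13.94. It was not the highest for stellate, neutrophil, T cell or red cell markers. The mean of 22 acute-phase genes was 12.02 in 11-month tumour 2, against 10.37 to 11.04 in the other tumours and 10.05 to 11.07 in controls. The part of these cells and genes in the members' levels was not tested.

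Across the arrays the member most like Fos was Junb (Pearson's r = 0.93 over 13 arrays), followed by Csrnp1 (0.92) and Egr2 (0.90). Of the 37 other members 14 had an r over 0.8, against 30 of 18155 genes outside the set. The 10 genes outside the set that were most like Fos were Btbd19 (0.94), Brd2 (0.92), Dnajb1 (0.91), Actg2 (0.90), Sertad1 and Irf1 (0.88), Dmbt1 (0.87), Myh11 and Sertad2 (0.86) and Sprr1b (0.85). All arrays share 1 normalisation, and the Fos-high pair carries much of these values. Over the 8 tumours alone, r with Fos was 0.94 for Btg2, 0.92 for Csrnp1, 0.90 for Ier3 and 0.88 for Gadd45a, but 0.30 for Egr2 and -0.23 for Jun. These correlations describe the arrays and carry no test.

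Further genes known to respond early to growth factors or cytokines were taken from a list of 50 measured genes that are not members. With limma, 8 rose and 3 fell in tumours, and the median fold change was 0.27, against -0.05 over all genes. These counts, and those of the lists below, compare with 10.3% of all genes higher and 9.81% lower. Ets2, an ETS-family transcription factor, averaged 10.50 ± 0.33 in tumours (SD) and 8.52 ± 0.39 in controls (log2 fold change 1.97, adjusted p = 0.000177). Tnfaip3, an inhibitor of NF-kB signalling, rose by 2.13 (adjusted p = 0.00768) and the chemokine Ccl2 by 1.64 (adjusted p = 0.0334), whereas Phlda1 fell by 2.47 (adjusted p = 0.00811). Between the controls, 14 of the 50 genes were over 1 higher in the mean of the Fos-high set and 1 was over 1 lower. With no overlap asked for as well, 1.38% of all genes were over 1 higher and 0.385% over 1 lower. The largest differences were those of the chemokine Cxcl1 (3.35), the matrix-associated Ccn1 (2.99), the pseudokinase Trib1 (2.58) and the transcription factor Irf1 (2.39), none of which passed between tumours and controls.

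The kinases and factors upstream of these genes differed little between the sets of controls. Of 27 measured genes of the pathway, 0 differed by over 1 between the 2 sets of controls. With no overlap asked for as well, 1.38% of all genes were over 1 higher and 0.385% over 1 lower. The count of 0 is thus near the share of all genes. In tumours 6 rose and 2 fell, against 10.3% and 9.81% of all genes. Egfr, the receptor of epidermal growth factor, fell by 2.30 in tumours (limma adjusted p = 0.00375), and its exchange factor Sos1 by 0.74 (adjusted p = 0.00764). The coactivators of serum response factor Mrtfa and Mrtfb rose by 0.72 (adjusted p = 0.0122) and 0.70 (adjusted p = 0.0301). Of 10 further bZIP partners of AP-1, 1 rose, Batf3 (1.43, adjusted p = 0.0473).

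Some genes of other fast responses of the liver also differed between the sets of controls. Over 1 higher in the Fos-high set were 3 of 10 heat shock genes (median difference 0.61), 6 of 22 acute-phase genes (0.14), 2 of 10 glucocorticoid-responsive genes (0.35) and 3 of 15 clock genes (0.44). Over 1 lower were 1 acute-phase gene and 2 clock genes, and the median difference over all genes was 0.015. These counts compare means and ask for no gap between the sets. With no overlap asked for as well, 1.38% of all genes were over 1 higher and 0.385% over 1 lower. Cdkn1a, 1 of the 2 glucocorticoid-responsive genes counted, did overlap, with 7.74 and 7.46 in Fos-high controls and 6.01, 7.59 and 5.65 in Fos-low controls. In the list of heat shock genes, Dnajb1 was 4.03, Hspa1a 3.52 and Hspa1b 3.14 higher in Fos-high than in Fos-low controls. The mean level of the list was 9.40 to 10.80 in tumours, 11.07 and 11.11 in Fos-high controls and 9.65 to 9.90 in Fos-low controls, and Hspa8 (0.70, limma adjusted p = 0.038) and Hsp90aa1 (0.66, adjusted p = 0.012) rose in tumours. Among the acute-phase genes, the metallothioneins Mt1 and Mt2 were 5.01 and 5.0, Lcn2 3.44 and Saa2 2.93 higher in Fos-high than in Fos-low controls. In tumours 4 of these genes rose and 1 fell. Lcn2, a siderophore-binding protein, rose by 5.31 (adjusted p = 0.000812), to 13.02 ± 0.49 in tumours, against 7.79 ± 1.95 in controls (SD). Of the glucocorticoid-responsive genes, Cdkn1a (2.07, adjusted p = 0.00563) and the member Sgk1 rose in tumours, and Fkbp5 was 1.32 higher in Fos-high than in Fos-low controls. Of the clock genes, Hlf (-2.14, adjusted p = 0.0422) and Nr1d1 (-1.08, adjusted p = 0.0331) fell in tumours. Between the controls the means of the clock genes Dbp and Arntl differed by 2.53 and -1.75 (Fos-high minus Fos-low), but the Fos-low controls were not alike. Dbp was 10.84 and 11.16 in Fos-high controls, 10.75 in 14-month control 2, 8.98 in 11-month control 2 and 5.66 in 14-month control 1. Arntl was 5.56 and 5.37, against 5.55, 7.39 and 8.71 in the same order. In both genes 14-month control 2 was thus close to the Fos-high controls. What part these responses have in the members' levels was not tested.

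Markers of other cell types differed between tumours and controls for some lists. The mean of 7 stellate cell markers was 7.73 to 9.40 in tumours, 7.83 and 8.05 in Fos-high controls and 7.26 to 7.51 in Fos-low controls, with 3 rises, among them Col1a1 (3.14, limma adjusted p = 0.0167), and 1 fall. The mean of 5 neutrophil markers was 6.02 to 7.58 in tumours, 5.45 and 5.57 in Fos-high controls and 4.94 to 5.98 in Fos-low controls, with 3 rises. Of 7 macrophage markers Cd68 rose (1.94, adjusted p = 0.00434) and none fell, but the median of the list was -1.09, with -2.16 for the Kupffer cell marker Clec4f (adjusted p = 0.0624). Of 7 endothelial markers Pecam1 rose (0.92, adjusted p = 0.044) and none fell, but the median of the list was -0.24. Its marker Clec4g averaged 7.71 in tumours and 9.82 in controls, without passing (adjusted p = 0.0888). None of the markers of cholangiocytes (5 measured), T cells (5), B cells (4) or red cells (2) passed. The part of these cell types in the members' rises was not tested.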

How the data were processed

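RNA of 8 tumours and 5 control livers was measured on 13 one-colour Affymetrix arrays. The authors used robust multi-array analysis (RMA) in software from Partek and deposited log2 values, per the submitters' processing notes and the series' design text. The sources used here give no version or settings. The log2 base was read from the values. The table holds 45101 probe sets, of which 34945 name 1 gene in the platform annotation, 932 several, 9160 none and 64 are array controls. Each of 18193 genes was read from its probe set with the highest mean, without a filter on level. The table had 0 columns of no sample. Arrays give no read depth, and their number limits the precision.

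A single limma fit (version 3.58.1, R 4.3.3) estimated a mean for each group and age, with the spread moderated by eBayes (2.314 prior degrees of freedom). Benjamini-Hochberg adjustment ran over all genes. With the ages combined, both ages had equal weight. The script was tested on simulated data. Differences from the 2 sets of controls, defined by a Fos level of 10, are plain differences of means. Tables were made with Python 3.11.15, pandas 2.3.3 and numpy 2.4.6, and figures with matplotlib 3.10.9. Members and lists were chosen with earlier results of these data known. All members may be named, and from each other list up to 4 genes with the largest change past the threshold and up to 4 with the largest difference between the sets of controls. The 10 other genes most like Fos were added. The alternatives were other probe sets, scalings, moderation, weights, filters and thresholds, no age term, 14-month tumours 1 and 2 averaged because they may share a mouse, each array left out, and both near-identical controls left out. Testing all probe sets, and leaving out arrays in the comparison with the sets of controls, were chosen after seeing the data.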

Additional observations from a re-analysis of the deposited data

Results flagged for a closer look

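Among the 5 tumours of 14 months, 1 array lay far from the other 4 in 4 of 38 members tested, and chance alone flags about 1 in 20 such groups. The orphan nuclear receptor Nr4a1 was 7.15 in 14-month tumour 4, below the other tumours of that age. In 14-month tumour 1 the Krüppel-like factors Klf2 and Klf10 stood apart, with 6.19 for Klf2, below the others, and 8.76 for Klf10, above them. Egr3 was 6.15 in 14-month tumour 3, above the others, within a range of tumour levels of 5.87 to 6.19.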

How the results depend on the processing

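No paired analysis was possible because the labels carry no replicate numbers that groups share. In 23 alternatives with the ages combined, Ier3 was called in all, Ier5 in 22, Btg1 in 20, Sgk1 in 16 and Klf4 in 16 of the 22 that tested it. The count of 5 members was 2 at an adjusted p of 0.01, 10 without both near-identical controls and 1 (without 11-month control 2) to 7 (without 14-month control 3) when 1 array was left out; it was 3 without 14-month control 1, 14-month control 2 or 11-month tumour 3. The 14-month count of 3 was 6 with array weights, 0 at an adjusted p of 0.01 and 0 to 5 with 1 array left out. After repeated quantile normalisation it was 4, with 3 members higher and 1 lower in tumours. The 11-month count stayed at 0. With 1 array left out, the median difference of tumours was 0.883 to 1.172 from the Fos-low and -0.506 to -0.283 from the Fos-high controls. Leaving out an 11-month control, or both near-identical controls, leaves 1 control of 11 months, assumed to vary like the other groups. The counts from these fits rest on that assumption. The near-identical controls are also those with the highest Fos, so the count without both is partly fixed by the choice and supports nothing by itself.

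No member that passed changed sign. Members that had not passed changed sign without both near-identical controls (Fos 1.566, Jun 1.457, Junb 1.172, Egr1 0.918, Egr2 1.618, Fosb 0.119, Klf2 0.184, Ier2 0.083, Csrnp1 0.45, Dusp5 0.522, Zfp36 0.076), with array weights (Dusp5 0.042), with 14-month tumours 1 and 2 averaged (Gadd45a -0.035), with no age term (Socs3 -0.023) and with the mean of all probe sets (Nr4a2 1.055). Of 33 other probe sets of 17 members, 9 had the opposite sign: Nr4a2 (1.85, 0.19, 1.65, 2.72 and 0.01), Gadd45b (-0.19), Jund (-0.22), Mcl1 (-0.12) and Socs3 (-0.17), and 3 passed, those of Btg1 (0.59), Ier5 (1.09) and Gadd45b (1.02). With 1 array left out, signs changed within the ranges of Fos (-2.42 to 0.46), Jun (-1.59 to 0.68), Junb (-1.22 to 0.60), Egr1 (-2.07 to 0.072), Egr2 (-3.50 to 0.32), Klf2 (-0.22 to 0.08), Csrnp1 (-0.97 to 0.13), Dusp5 (-0.52 to 0.28), Atf3 (-0.64 to 1.95), Nr4a1 (-0.47 to 0.95), Myc (-0.58 to 1.42), Dusp6 (-0.014 to 1.07), Gadd45a (-0.58 to 0.78), Socs3 (-1.0 to 1.25), Fosl1 (-0.11 to 0.23) and Mcl1 (-0.039 to 0.28). The cause was not tested.

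Over all genes, 3657 passed with the ages combined, but 1443 at an adjusted p of 0.01, 1368 without both near-identical controls and 1814 to 4359 with 1 array left out. At 11 months 349 passed, but 42, 35 and 21 to 731, and 232 with 14-month tumours 1 and 2 averaged. At 14 months 2775 passed, but 657, 874 and 922 to 3537, and 5659 with array weights; 1523 were higher and 1252 lower, against 1228 and 1531 after repeated quantile normalisation. For the difference between the ages 0 passed, and 0 to 1 with 1 array left out.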
